A study of Mus musculus with 33 samples.

Results

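The genes described here copy DNA during S phase and supply its nucleotides: the MCM2-7 helicase and its loaders, the factors that fire replication origins, the replicative polymerases and primase, the sliding clamp PCNA and its loader, the single-strand binding, flap and ligation proteins, the enzymes that make deoxynucleotides, cyclin E, E2F1 and factors that rebuild chromatin behind the fork. They were followed in whole dorsal skin over the hair cycle. Of 43 named genes, 42 had a probe set annotated to that gene alone, against 18193 such genes on the whole array, and each gene is represented by its probe set with the highest mean log2 signal over the 33 arrays. Chaf1a had no such probe set and was not analysed. All 42 probe sets passed the filter on low signals, and 1 of their values lay below the floor of 34.6, that of Tyms on a D17 array.

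Every array held RNA from the upper-mid back skin of 1 wild-type C57BL/6 mouse, and no mutant or drug was involved. After depilation of resting skin with wax and rosin at 7 weeks of age, 2 female mice were sampled at each of 5 times: day 3 (D3), staged as early anagen, day 5 (D5), staged as mid anagen, the late anagen days D8 and D12, and D17, when early catagen had been reached. In the natural second cycle, mice were sampled at postnatal day 23 (P23, 2 males) and P25 (1 of each sex), both early anagen, and at P27 (mid anagen, 3 mice), P29 (late anagen, 3 mice), P34 (late anagen, 1 female), P37 and P39 (early catagen, 3 mice each), P41 (mid catagen, 3 mice) and P44 (telogen, 3 mice). Time points from P27 to P44 with 3 mice held both sexes. Phases follow the morphological staging in the design of the series; the text labels of the P41, P44 and depilated samples carry the words early anagen, and the days were used. Age moves with phase in the natural cycle, all depilated mice were older than 7 weeks and female, and no unwaxed skin of that age was profiled, so that depilation, age and sex cannot be told apart between the cycles.

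Anagen is the growth phase of the follicle, in which matrix cells at its base divide quickly, catagen its regression and telogen its rest. Eukaryotic cells license replication origins in G1 phase, when the origin recognition complex (ORC), CDC6 and CDT1 load MCM2-7, and fire them in S phase, when CDC45 and GINS join MCM2-7 to form the active helicase. Transcription of many of these genes is switched on by E2F factors at the G1 to S transition, and their transcripts are low in resting cells. In whole skin, fewer cells in S phase and less transcript per cell cannot be told apart.

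E2F factors bind the words TTTCCCGC, TTTGGCGC, TTTCGCGC and TTTGCCGC, and promoter windows from 250 bases before to 50 bases after the start (RefSeq, GRCm38.p6) were searched for them on both strands, with overlapping matches counted separately. Windows were found for 34 of the 42 genes, and 14 of the 34 (41.2%) held at least 1 word, against 704 of 27025 genes with a window (2.6%). The shorter CCAAT box, searched as CCAAT on both strands, was present in 20 of the 34 (58.8%) and in 41.1% of all genes. A gene can have several windows, 1 for each listed start (32851 windows in all), and it was counted if any of them held a word. Stretches before such a start are shown for 6 of these genes, in the direction of the gene, with the E2F words in capitals. Those of Mcm7, Cdc6, Uhrf1 and Orc1 lie inside the annotated span of the gene, before a start further in. In Mcm5 a pair of words overlap, as they do at the first site of Mcm6, which has 1 more word nearer to the start.
Mcm5, chr8:75109340-75109383, plus strand: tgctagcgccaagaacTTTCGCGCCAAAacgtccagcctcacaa
Mcm6, chr1:128359729-128359831, minus strand: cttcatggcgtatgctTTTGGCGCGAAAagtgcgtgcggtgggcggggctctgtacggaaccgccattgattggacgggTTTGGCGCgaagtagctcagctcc
Mcm7, chr5:138172025-138172064, minus strand: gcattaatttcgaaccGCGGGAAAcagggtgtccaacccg
Cdc6, chr11:98907997-98908036, plus strand: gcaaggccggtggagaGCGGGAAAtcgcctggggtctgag
Uhrf1, chr17:56304112-56304151, plus strand: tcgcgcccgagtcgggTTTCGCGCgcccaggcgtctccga
Orc1, chr4:108579411-108579450, plus strand: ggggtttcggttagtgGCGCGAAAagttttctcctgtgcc
The windows of Tk1, Rrm2, Pcna, Ccne1, E2f1, Mcm2 and Cdc45 held none of the 4 words. A match is a description of these letters, and no binding was measured.

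The arrays had been scaled to the same trimmed mean (496.8 to 498.4), their median signals ran between 111.2 and 142.5, and arrays of 1 time point correlated at 0.943 to 0.980. Averaged over the 42 genes, the log2 signal was between 9.96 and 10.14 on the 4 early anagen arrays and between 8.39 and 8.61 on the 3 telogen arrays. Replicates stood apart within some time points. The P41 replicate 1 array (the only female of that day) averaged 8.60, against 8.06 and 8.04 for the others, P37 replicate 2 averaged 8.60 against 9.06 and 9.15, P39 replicate 1 averaged 8.81 against 9.23 and 9.25, D12 replicate 2 averaged 8.99 against 9.47, and the D17 arrays averaged 9.07 and 9.51. The sexes were not ordered alike on other days. P39 replicate 1 was female, as was replicate 2 (9.23), and at P44 the only female averaged 8.39, against 8.57 and 8.61.

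In the natural cycle most of the replication genes had their highest means as growth began and their lowest in mid catagen. P23 was the first day sampled in this cycle. Mid catagen and telogen did not differ past the test for any of the 42 genes. The mean log2 signal was highest at P23 for 30 of the 42 genes and at P25 for 9, and lowest at P41 for 36. Of 12859 genes with a kept probe set, 12.9% were highest at P23, 14.5% at P25 and 13.5% lowest at P41. The P41 arrays averaged 8.60, 8.06 and 8.04 over the 42 genes, and the telogen arrays 8.39 to 8.61. P41 replicate 1 thus lay within the telogen range. With each gene centred on its mean over all 14 time points, the median over the 42 genes was 0.79 at P23, 0.72 at P25, 0.44 at P27, 0.10 at P29, -0.16 at P34, -0.38 at P37, -0.24 at P39, -1.07 at P41 and -0.78 at P44, on the log2 scale. After depilation it was 0.01 at D3, 0.43 at D5, 0.40 at D8, -0.12 at D12 and -0.02 at D17. Highest means fell at D5 for 21 genes and at D8 for 17, and lowest means at D12 for 25 and at D3 for 10. The low at D12 leans on 1 array. Averaged over the 42 genes, the D12 arrays stood at 9.47 and 8.99, and the D3 arrays at 9.29 and 9.38. Of all 12859 genes, 18.9% were highest at D5 and 14.6% at D8, and 27.1% were lowest at D12 and 33.5% at D3.

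**Figure D1:**
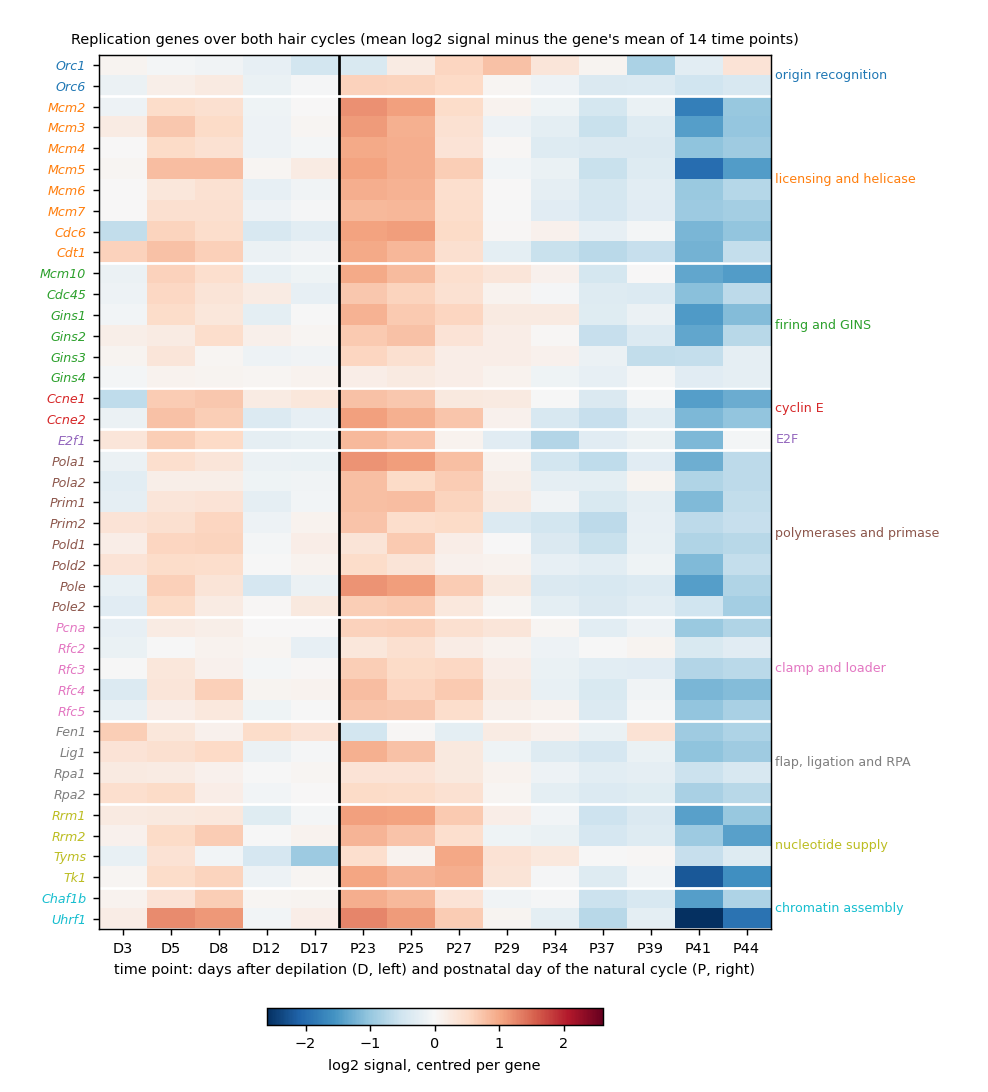
Mean log2 signal of the 42 genes (rows, grouped and coloured by role) at the depilation time points D3 to D17 (left) and natural time points P23 to P44 (right), each gene centred on its mean over the 14 time points. Most rows are red at P23 and P25 and blue at P41 and P44, while Orc1, Fen1 and Tyms depart from that order.

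The size of the swing differed widely between genes. Over the natural time points the means of Uhrf1, which directs maintenance methylation to newly copied DNA, spanned 3.86 log2 units (14.5-fold), followed by Tk1 (3.23, thymidine salvage), Mcm5 (3.01) and Mcm2 (2.97). Gins4 spanned 0.52, the loader subunit Rfc2 0.82 and the single-strand binding protein Rpa1 0.91. Within time points the pooled SD of the array values was 0.54 for Uhrf1, 0.37 for Tk1, 0.40 for Mcm5, 0.12 for Gins4, 0.14 for Rfc2 and 0.15 for Rpa1. A moderated F test over the 6 natural phases (limma, adjusted over all 26988 kept probe sets) called 42 of the 42, with 72.6% of all kept probe sets called.

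In early anagen the licensing genes were all higher than in telogen. Mcm5 had signals of 3608.8 and 3950.3 at P23 and 3184.1 and 3957.9 at P25, against 598.4, 676.4 and 755.3 at P44. Every early anagen array lay above every telogen array. Averages were 3675 ± 366 in early anagen (SD, n = 4) and 676.7 ± 78.5 in telogen (n = 3), a log2 difference of 2.44 ± 0.13 (SE; limma adjusted p 0.000228). Cdc6, the loading ATPase, had 409.2, 523.9, 469.3 and 485.1 in early anagen, against 124.1, 131.2 and 83.2 in telogen, and rose by 2.09 ± 0.18. All 8 licensing genes rose, with log2 differences between 1.53 (Cdt1) and 2.44 and a median of 1.94.

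Across all roles 38 of the 42 genes were called higher in early anagen than in telogen and 0 lower, where 13.5% of all kept probe sets were called higher and 13.2% lower. The median log2 difference was 1.54, against -0.05 over all kept probe sets. The largest was that of Uhrf1, with 2187.2 and 2510.7 at P23 and 1642 and 2649.9 at P25, against 198.2, 348.8 and 237.8 at P44 (3.12 ± 0.24, adjusted p 0.0005). Tk1 came next at 2.55 ± 0.20, with averages of 1532 ± 198 in early anagen and 267.3 ± 76.4 in telogen. Of the ribonucleotide reductase subunits, which turn ribonucleotides into deoxyribonucleotides, Rrm2 rose by 2.23 ± 0.19 and Rrm1 by 2.05 ± 0.15.

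Of the factors that complete the helicase at firing, Mcm10 rose by 2.36 ± 0.31, Gins1 by 1.92 ± 0.15, Gins2 by 1.44 ± 0.17 and Cdc45 by 1.31 ± 0.12, while Gins4 rose by 0.45 ± 0.12. All 8 polymerase and primase genes rose, by between 1.03 (Pold2, a subunit of the lagging strand polymerase) and 1.91 (Pole, the catalytic subunit of the leading strand polymerase). So did all 5 clamp and loader genes, with Pcna at 10707.3, 10885.8, 10943 and 11047 in early anagen, against 3955.7, 4418.9 and 4075.9 in telogen (1.39 ± 0.10). Both cyclins E, which activate CDK2 at the G1 to S transition, rose by 2.01, with SEs of 0.21 for Ccne1 and 0.11 for Ccne2. The histone chaperone subunit Chaf1b rose by 1.70 ± 0.15 and the ligase Lig1 by 1.77 ± 0.16. E2f1, the activator of many of these promoters, rose by only 0.83 ± 0.24 (adjusted p 0.0396), and that call was lost when any 1 of P23 replicate 1 or 2, P25 replicate 1 or 2 or P44 replicate 3 was left out (adjusted p up to 0.0925). The call of Gins4 was lost in 5 such fits, without P23 replicate 1 or 2, P25 replicate 2 or P44 replicate 2 or 3 (up to 0.102), and that of Rfc2 without P44 replicate 3 (0.0571).

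The 4 genes not called were Orc1 (-0.46 ± 0.21, adjusted p 0.154), Fen1 (0.59 ± 0.25, 0.118), Tyms (0.61 ± 0.21, 0.0665) and Gins3 (0.71 ± 0.23, 0.0543). For Orc1, the largest ORC subunit, and Fen1, the nuclease that trims Okazaki fragments, the result depended on the probe set. The Orc1 probe set with the highest mean gave 105.5 and 95.6 at P23 and 141.2 and 166.1 at P25, against 196.9, 155.3 and 161.8 at P44. The other Orc1 probe set gave 204.8, 262.5, 167.4 and 284.1 in early anagen, against 44.2, 20.3 and 105.2 in telogen, which is 2.05 ± 0.39 higher (adjusted p 0.00953). The groups overlapped in the first set and stood apart in the second. For Fen1 the second probe set gave 1177.3, 1250, 1212.8 and 1260 in early anagen, against 335.1, 497.7 and 360.4 in telogen (1.64 ± 0.15, adjusted p 0.000764). The second probe set of Gins3 differed by 0.62 ± 0.14 (adjusted p 0.0186). Among the genes that were called, other kept probe sets of Mcm2 (1.18 ± 0.44, adjusted p 0.0886), Cdc45 (0.70 ± 0.39, 0.216) and Rfc2 (0.69 ± 0.26, 0.0875, and 0.45 ± 0.19, 0.11) did not pass, while those of the other called genes did. Probe sets that can match several transcripts carry an x or s in their Affymetrix name, and the first set of Fen1 is one of them. So are the sets that represent Mcm3, Mcm5, Mcm7, Gins2, Pold1, Rrm2 and Ccne1. For Tyms, which makes thymidylate, 3 other probe sets were dimmer and did not pass the filter.

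**Figure D2:**
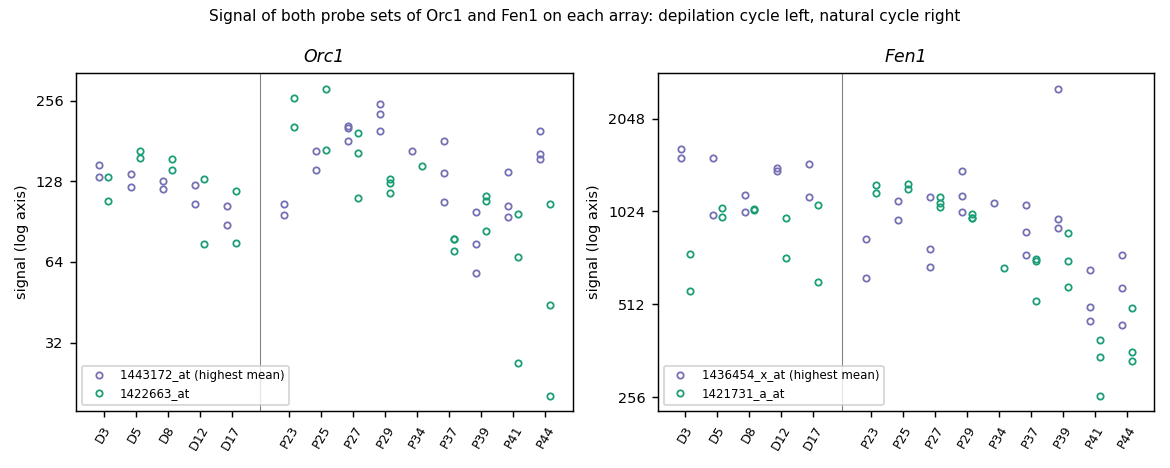
Signal (log axis) of both probe sets of Orc1 and Fen1 on each of the 33 arrays, with the depilation cycle left and the natural cycle right. The second probe set (green) of both genes is high at P23 and P25 and low at P41 and P44, while the first set (purple) of Orc1 is highest at P29 and 1 P39 array stands above all others for Fen1.

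Other tissue changed beside the replication genes between early anagen and telogen. All 8 markers of dividing cells (Mki67, Top2a, Cdk1, Ccnb2, Birc5, Aurka, Plk1 and Bub1) rose, with a median of 3.27, and so did all 8 markers of the follicle matrix and inner root sheath, whose summed signal was 21656.5 to 56617.9 in early anagen, against 1319.1 to 3167.8 in telogen. Of 8 leukocyte markers 4 fell and 0 rose, with sums of 9978.7 to 15959.2 in early anagen and 24608.9 to 29832.7 in telogen. Of 4 cornified and suprabasal markers 3 fell, and of 6 muscle markers 3 fell, with sums of 58179 to 74733.4 in early anagen and 100857 to 114422 in telogen. Basal keratinocyte markers, which the epidermis shares with the hair follicle, were present on all arrays. They summed to 57080.8 to 64761 in early anagen and 70572.2 to 82477.9 in telogen. The part of these shifts in the replication result was not tested.

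**Figure D3:**
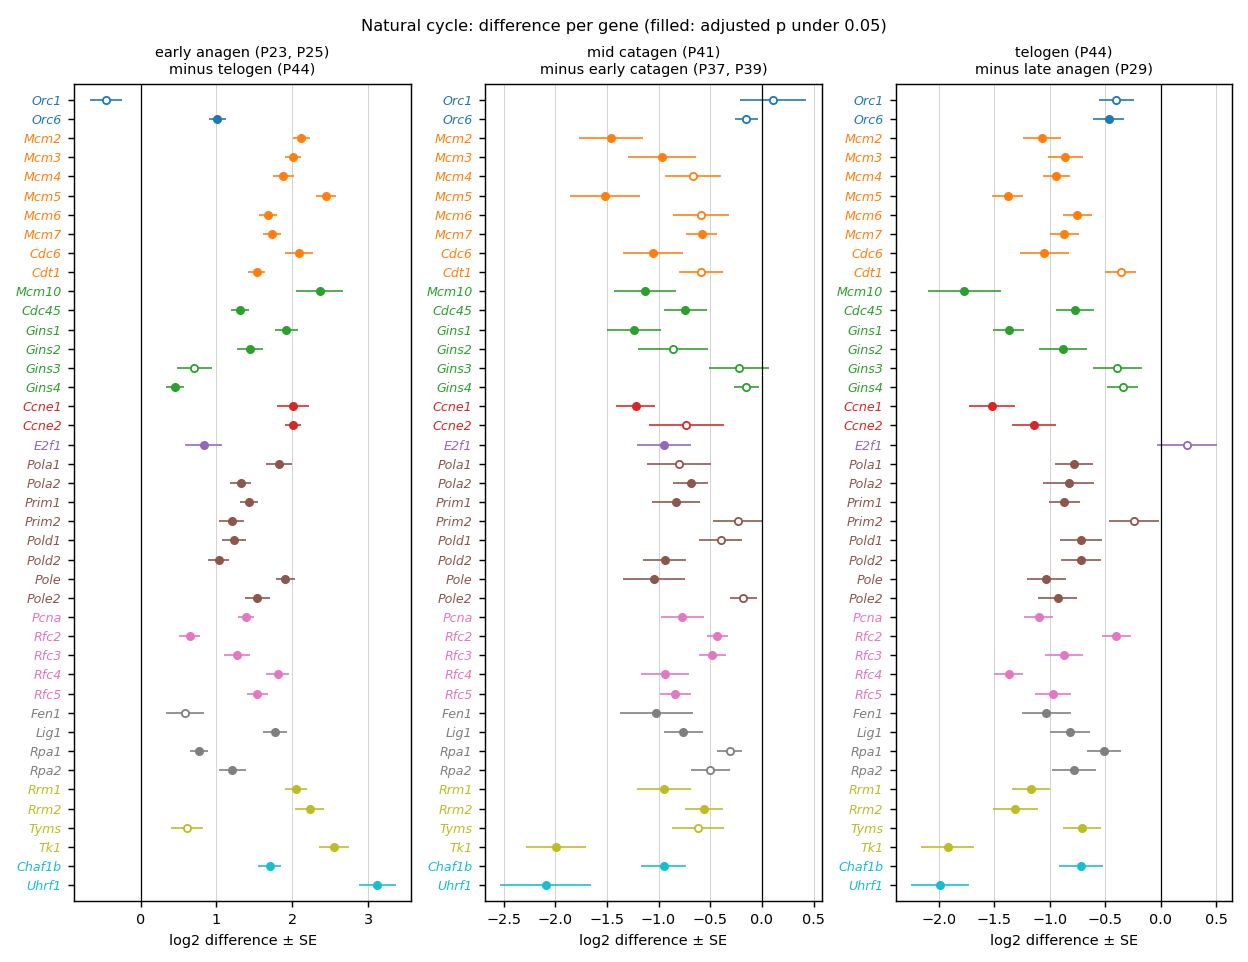
Log2 difference (points) with its SE (bars) of the 42 genes for early anagen minus telogen, mid catagen minus early catagen and telogen minus late anagen, coloured by role, filled where the limma adjusted p is under 0.05. In the first panel 38 genes are filled to the right of 0, in the second 26 and in the third 36 to the left.

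Within early anagen no gene differed between P25 and P23 past the test, where 0.0111% of kept probe sets were called higher and 0% lower. At an unadjusted p under 0.05 stood 1 gene, and 6.05% of all kept probe sets. In mid anagen 7 genes were called lower than in early anagen (9.27% of all kept probe sets were) and 1 higher (10.4%). The 7 were E2f1 (-0.69 ± 0.15), Mcm2 (-0.65 ± 0.13), Mcm3 (-0.61 ± 0.15), Mcm4 (-0.60 ± 0.15), Lig1 (-0.59 ± 0.11), Cdc6 (-0.58 ± 0.13) and Cdt1 (-0.50 ± 0.12), thus 5 of the 8 licensing genes and 0 of the 8 polymerase and primase genes. Mcm2 had 1177.5, 1265.7 and 1545.9 in mid anagen, against 2153.1, 2191.8, 1899.3 and 2081.8 in early anagen. Tyms alone was higher, with 177.1, 202.9 and 200.1 in mid anagen, against 131.7, 131.5, 84.8 and 125.7 in early anagen (0.73 ± 0.18, adjusted p 0.0315). Tk1 (0.00 ± 0.13) and Pola2 (0.01 ± 0.13) lay near 0. The medians were -0.54 for the licensing genes and -0.32 for the polymerase and primase genes. Whether these roles differ in this step was not tested. The chromatin assembly genes had differences of -0.53 and -0.54 and were not called. Over the same step 7 of 8 matrix markers rose (median 1.28), while 3 of 4 mesenchyme and 4 of 6 muscle markers fell, and their part was not tested. The count of 8 depended on single arrays. It was 15 without P27 replicate 3, all lower, and 0 without P27 replicate 2, 1 without P27 replicate 1, 3 without P23 replicate 1 and 4 without P23 replicate 2.

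The further steps down to early catagen did not pass the test. Their medians were larger in size than that of mid against early anagen (-0.33). Between late and mid anagen 0 genes were called in either direction, as for all kept probe sets (0%), with a median of -0.38 and 20 genes at an unadjusted p under 0.05 (19.7% of all kept probe sets). Early catagen against late anagen also gave 0 calls (0% of all kept probe sets), with a median of -0.40 and 17 genes at an unadjusted p under 0.05 (13.3%). Between P39 and P37 no gene was called (0% of all kept probe sets higher, 0.0111% lower), and 2 genes had an unadjusted p under 0.05, as did 4.67% of all kept probe sets.

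In mid catagen most of the replication genes fell. Tk1 had 262.9, 151 and 127.3 at P41, against 755, 475.5 and 672.6 at P37 and 491.8, 978.1 and 878.1 at P39, with no overlap, a log2 difference of -1.99 ± 0.29 (adjusted p 0.00135). Uhrf1 had 355.9, 114.7 and 102.9 at P41, against a median of 767 in early catagen (335.1 to 940.1, n = 6), and differed by -2.09 ± 0.44 with an overlap of 1 array from each side. Mcm5 differed by -1.52 ± 0.34 and Mcm2 by -1.46 ± 0.31, again with an overlap.

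In all, 26 of the 42 genes were lower in mid than in early catagen and 0 higher, where 17.9% of all kept probe sets were lower and 17.4% higher, and the median was -0.76. They included all 5 clamp and loader genes (-0.43 to -0.94) and both chromatin assembly genes, but 0 of the 2 ORC genes. Orc6 (-0.15 ± 0.11), Gins4 (-0.15 ± 0.12) and Pole2 (-0.18 ± 0.13) had small differences that did not pass. Beside these genes, all 8 dividing cell markers fell (median -1.62), and the 8 matrix markers fell while their sum was still 55715.9 to 66713.8 in mid catagen, against 108411 to 132061 in early catagen. Their part was not tested. Averaged over the 42 genes, the female array P41 replicate 1 lay above both males. Without it 29 genes were called, without P41 replicate 2 it was 12 and without P41 replicate 3 it was 10.

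**Figure D4:**
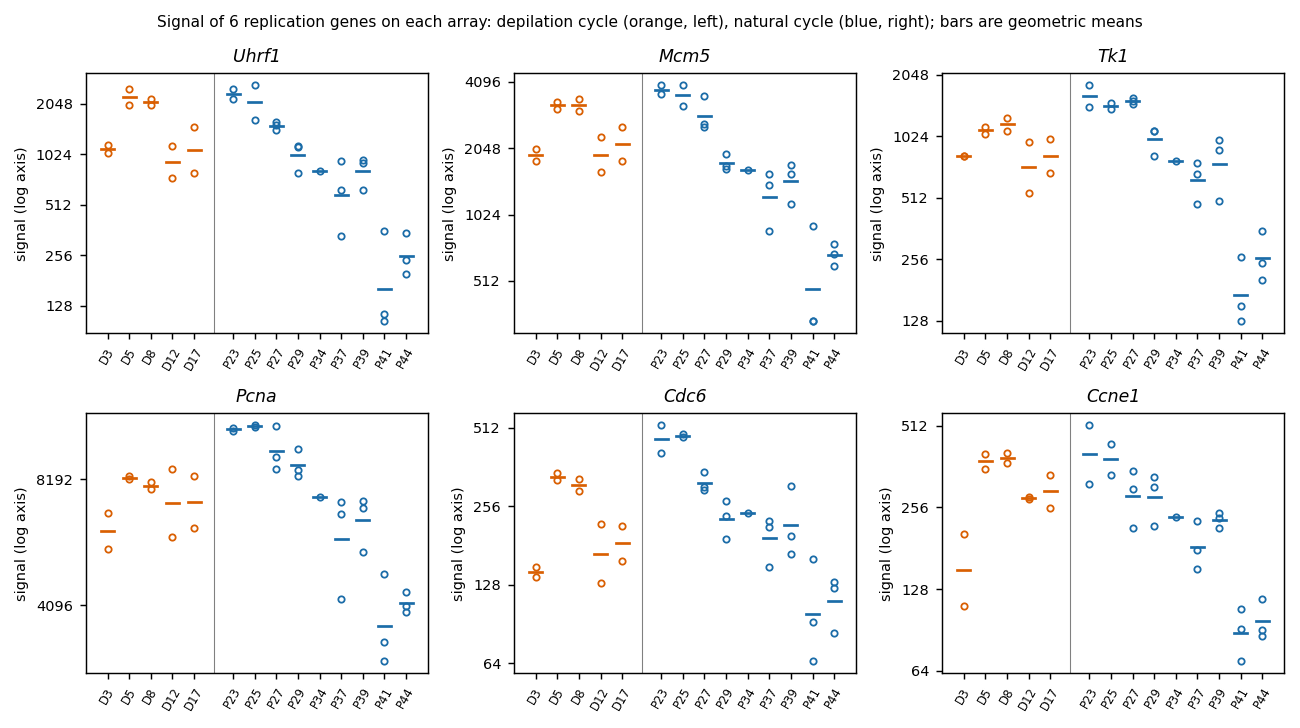
Signal (log axis) of Uhrf1, Mcm5, Tk1, Pcna, Cdc6 and Ccne1 on each array (circles) with the geometric mean of each time point (bars), depilation cycle in orange at left and natural cycle in blue at right. Within the natural cycle all 6 means are highest at P23 or P25 and lowest at P41, where 1 array of Uhrf1 and of Mcm5 stands above the others. Within the depilation cycle Mcm5, Pcna, Cdc6 and Ccne1 have their lowest means at D3.

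Telogen did not differ from mid catagen past the test for any of the 42 genes (2% of all kept probe sets were higher and 3.88% lower). The median was 0.19, and 8 genes had an unadjusted p under 0.05, as did 25.2% of all kept probe sets. E2f1 had 158.4, 309.5 and 294.7 in telogen, against 194.1, 95.2 and 75.6 in mid catagen (1.12 ± 0.42, adjusted p 0.167), and the groups overlapped. Rrm2 went the other way, with 709.9, 912.8 and 955.6 in telogen, against 1185.3, 1068.4 and 1301.8 in mid catagen (-0.47 ± 0.16, adjusted p 0.138). Mcm10, Pole2 and Rrm2 were the 3 genes with their lowest mean at P44. Without P41 replicate 1, 4 licensing genes were higher in telogen: Mcm2 by 1.25, Mcm5 by 1.00, Mcm3 by 0.84 and Cdt1 by 0.83.

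Set against late anagen, telogen had lower signals for 36 of the 42 genes and higher for 0 (21.6% of all kept probe sets were lower, 23% higher), with a median of -0.87. Uhrf1 had 198.2, 348.8 and 237.8 in telogen, against 1145.6, 1137.3 and 789.3 in late anagen (-1.99 ± 0.26, adjusted p 0.00135). Tk1 fell by 1.92 ± 0.24, Mcm10 by 1.77 ± 0.33 and Ccne1 by 1.52 ± 0.21. The 6 genes not called were Orc1, Gins3, Cdt1, Gins4, Prim2 and E2f1, of which E2f1 was the only one with a positive difference (0.24 ± 0.27). Its late anagen signals of 224.8, 200.1 and 194.3 lay within its telogen range. Beside these genes, all 8 matrix markers were lower in telogen than in late anagen (median -5.34) and all 8 dividing cell markers too (-2.6), while 6 of 8 leukocyte markers (1.84) and 6 of 6 muscle markers (1.73) were higher, and their part was not tested.

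After depilation the pattern at day 3 lay between rest and natural growth. At D3 27 of the 42 genes were higher than in telogen and 0 lower (13.4% of all kept probe sets were higher, 19.7% lower), with a median of 0.81. Uhrf1 had 1162.1 and 1036 at D3, against 198.2, 348.8 and 237.8 at P44 (2.11 ± 0.43, adjusted p 0.000867). Tk1 rose by 1.65 ± 0.31, Rrm2 by 1.54 ± 0.23, Mcm5 by 1.5 ± 0.32 and Lig1 by 1.27 ± 0.22. All 4 flap, ligation and RPA genes were called, but 0 of the 2 cyclins E, 0 of the 2 ORC genes and not E2f1 (0.36 ± 0.29). A missing call does not show that a gene stayed level. The cyclins E had a median of 0.76, against 0.65 for the 5 clamp and loader genes, of which 4 were called. The second Orc1 probe set had 108.5 and 132.3 at D3, against 44.2, 20.3 and 105.2 in telogen. Without D3 replicate 2, 16 genes were called.

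Against natural early anagen, a comparison that shares the D3 arrays with the one before, 28 of the 42 genes were lower at D3 and 1 was higher (26.1% of all kept probe sets were lower, 18.5% higher), with a median of -0.80. Cdc6 had 137 and 150.1 at D3, against 409.2, 523.9, 469.3 and 485.1 in natural early anagen, without overlap (-1.71 ± 0.29, adjusted p 7.69e-05). Its D3 difference from telogen was 0.37 ± 0.31, which did not pass. Ccne1 had 110.4 and 204.7 at D3, against 312.8, 514.6, 337.2 and 437.8 in early anagen (-1.39 ± 0.26), and 0.63 ± 0.27 relative to telogen, not called. Pole and Pola1, catalytic polymerase subunits, differed from early anagen by -1.32 ± 0.33 and -1.29 ± 0.30 and were not called against telogen (0.59 ± 0.34 and 0.53 ± 0.32). Orc6 gave -0.74 ± 0.13 against early anagen and 0.27 ± 0.14 against telogen.

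Other genes differed little at D3 from natural early anagen. Rpa2 had 827.7 and 808.7 at D3, against 753.3, 973.5, 814.4 and 863 in early anagen (-0.05 ± 0.20), and 1.16 ± 0.21 relative to telogen. Pold2 differed by -0.06 ± 0.21 from early anagen and by 0.97 ± 0.22 from telogen, Rpa1 by -0.13 ± 0.15 and 0.65 ± 0.16, Prim2 by -0.24 ± 0.24 and 0.96 ± 0.25, and Cdt1 by -0.33 ± 0.21 and 1.20 ± 0.23. In each case the difference from telogen was called and that from early anagen was not, which does not show that the levels were equal. Fen1 was the 1 gene higher at D3 than in early anagen (0.87 ± 0.32, adjusted p 0.0295), with 1631 and 1520.5 at D3, against 624.8, 831.3, 1103.3 and 962. Its second probe set ran the other way, with 567.6 and 746.1 at D3, against 1177.3, 1250, 1212.8 and 1260, and averaged over both probe sets the difference was -0.02. Without D3 replicate 1, 13 genes were lower than in early anagen, Cdc6, Ccne1, Pole, Pola1 and Orc6 among them.

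At D3 the summed signal of the follicle matrix markers lay below its level in resting skin while division markers were higher. The 8 matrix and inner root sheath markers summed to 607.5 and 773.3 at D3, against 21656.5 to 56617.9 in early anagen, and 4 of the 8 were lower than in telogen (1319.1 to 3167.8) and 0 higher. All 8 dividing cell markers were higher at D3 than in telogen (median 2.51), and 4 of the 8 were lower than in early anagen (median -0.62). Of 4 basal keratinocyte markers 3 were higher at D3 than in telogen, with sums of 90197.1 and 109008 at D3, against 70572.2 to 82477.9 in telogen. Their part in the D3 results was not tested.

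**Figure D5:**
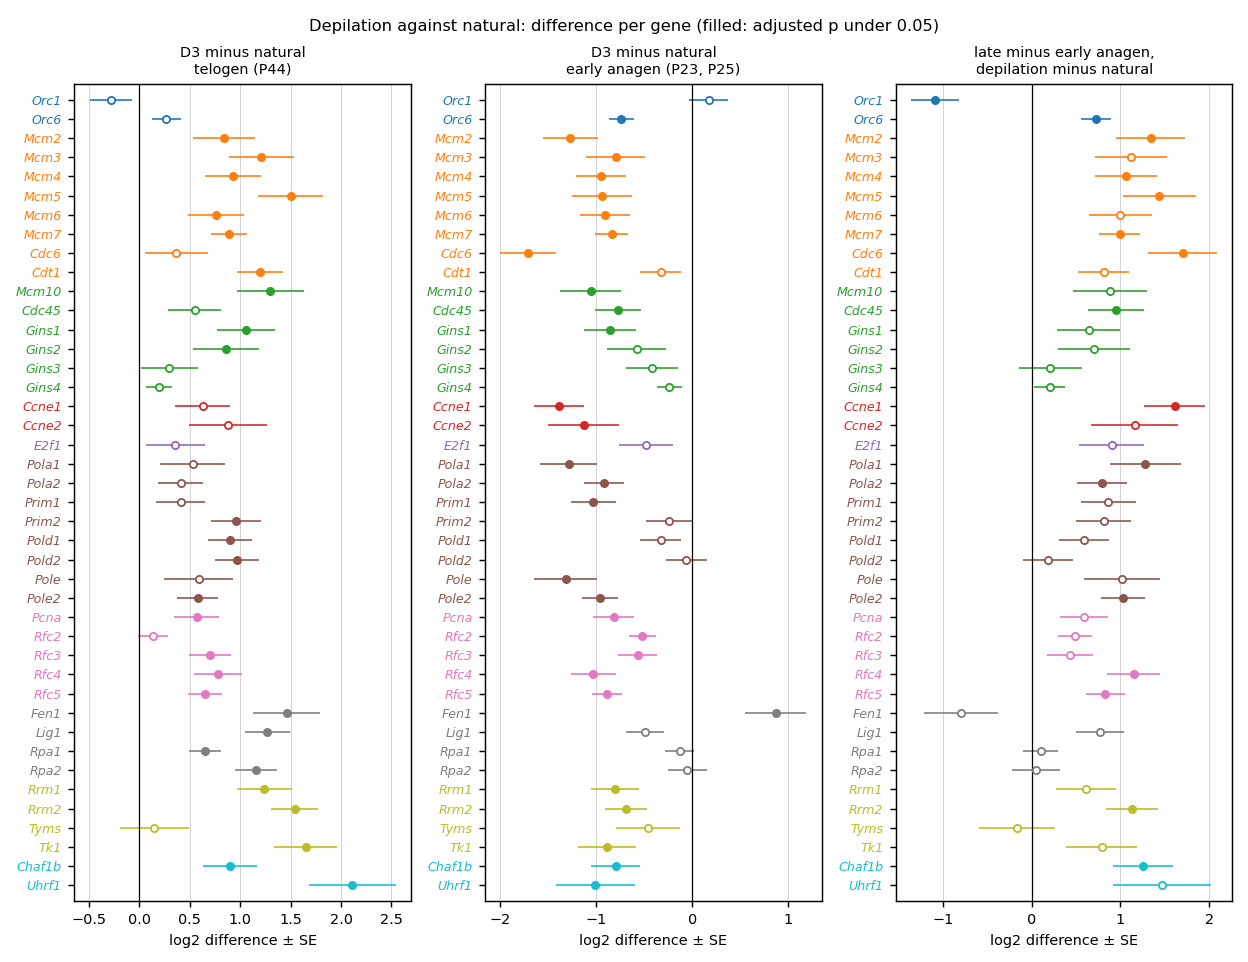
Log2 difference (points) with its SE (bars) of the 42 genes for D3 minus telogen, D3 minus natural early anagen, and the change between early and late anagen after depilation minus that in the natural cycle, filled where the limma adjusted p is under 0.05. In the middle panel Fen1 lies to the right of 0 and Rpa1, Rpa2 and Pold2 lie near it, while Cdc6, Ccne1 and Pole lie farthest to the left.

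Between D3 and D5 the means of 39 of the 42 genes were higher at D5, but 0 genes were called (1.95% of all kept probe sets were higher and 0.715% lower). The median was 0.39, against 0.03 over all kept probe sets, whose share of higher means was not counted. The largest differences were those of Ccne1, with 354.5 and 402.6 at D5, against 110.4 and 204.7 at D3 (1.33 ± 0.29, adjusted p 0.0581), and Cdc6, with 342.5 and 322.6 at D5, against 137 and 150.1 at D3 (1.21 ± 0.26, adjusted p 0.0587). Uhrf1 differed by 1.04 ± 0.33 (adjusted p 0.139). Unadjusted, 11 genes and 20.5% of all kept probe sets had a p under 0.05. Over the same step all 8 matrix markers rose (median 5.38), and the leukocyte sums of the D5 arrays were 5322 and 29701.2. Without D3 replicate 2, 1 gene was called, Ccne1 (1.77, adjusted p 0.028).

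Late anagen (D8 and D12) did not differ from D5 for any of the 42 genes past the test (0.43% of all kept probe sets were higher and 0.115% lower; 6 genes and 17.8% of all kept probe sets at an unadjusted p under 0.05), nor did D17 from D8 and D12 (0% in both directions; 0 genes and 3.51% of all kept probe sets unadjusted). The F test over the 5 depilation time points called 1 gene, E2f1 (adjusted p 0.0471), against 10.2% of all kept probe sets, and 12 genes had an unadjusted p under 0.05, as did 30.5% of all kept probe sets. E2f1 had 310.6 and 313.5 at D3, 385.2 and 397.7 at D5, 354 and 364 at D8, 231.8 and 195.3 at D12, and 189.7 and 258.5 at D17. Its call was lost without any 1 of 8 arrays, all but D3 replicate 2 and D12 replicate 1, and 2 arrays for each time point limit this test.

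At the later phases few of these genes were called between the cycles, which does not show that the levels were equal. D5 against natural mid anagen gave 1 gene lower, Orc1 (-0.61 ± 0.21, adjusted p 0.0391), and 0 higher (14.5% and 9.18% of all kept probe sets). D8 and D12 against natural late anagen gave Orc1 lower (-0.91 ± 0.18) and Prim2 higher (0.57 ± 0.21), where 15.9% of all kept probe sets were lower and 10.6% higher. D17 against natural early catagen gave Tyms lower (-0.97 ± 0.31, with 1 D17 value at the floor) and Pole2 higher (0.58 ± 0.18), with 9.82% and 5.5% of all kept probe sets. The medians of the 42 genes were -0.02, 0.05 and 0.30 in these comparisons, and those of all kept probe sets -0.06, -0.04 and -0.03. At D17 37 of the 42 differences were positive, and the share of all kept probe sets with a positive one was not counted. At an unadjusted p under 0.05 stood 3, 5 and 11 genes, and 35.6%, 38.1% and 28.5% of all kept probe sets. Orc1 again rests on the probe set that did not follow the second one. Its call at D5 was lost without any 1 of the 3 P27 arrays or the 2 D5 arrays, and without P27 replicate 2 Orc6 was called lower in its place (-0.44). At D8 and D12 the call of Prim2 was lost without P29 replicate 2 or 3, D8 replicate 1 or 2 or D12 replicate 1, and at D17 the count of 2 became 0 without P37 replicate 1, P39 replicate 1 or D17 replicate 1, 1 without D17 replicate 2 and 4 without P37 or P39 replicate 3.

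The change between early and late anagen was also compared between the cycles. This contrast equals the difference between the cycles in late anagen (median 0.05) minus that at D3 (median -0.80). It shares the arrays of both comparisons and is not a separate result. The change after depilation (mean of D8 and D12 minus D3) minus the natural one (P29 minus the mean of P23 and P25) was positive past the test for 15 of the 42 genes and negative for 1 (10.6% and 7.66% of all kept probe sets), with a median of 0.82. The largest that passed were those of Cdc6 (1.70 ± 0.39, adjusted p 0.00514), Ccne1 (1.61 ± 0.34, 0.00308) and Mcm5 (1.44 ± 0.41, 0.0185), followed by Mcm2 (1.34 ± 0.39) and Pola1 (1.28 ± 0.40). Orc1 was the negative one (-1.09 ± 0.27). Mcm5 had 3016.3, 3425.4, 2305.5 and 1588.8 at D8 and D12, against 1792.3 and 2033.3 at D3, while it had 1936.4, 1703.5 and 1642.1 at P29, against 3608.8, 3950.3, 3184.1 and 3957.9 at P23 and P25. This result leans on D3 replicate 1, without which 2 genes were called, Cdc6 (1.64) and Mcm7 (0.90). All 8 matrix markers gave a positive value too (median 5.04), and their part was not tested.

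Time courses within the set were alike. Over the 14 time-point means, the correlation of a gene with the mean of the other members was between 0.842 and 0.987 for 37 of the 42 genes, highest for Mcm7 (0.987), with lower values for Rfc2 (0.840), E2f1 (0.808), Tyms (0.565), Fen1 (0.376) and Orc1 (0.08). Genes outside the set whose course was most like the mean of the members were Stil (0.989), Rbl1 (0.987), Exosc8 (0.987), Cenpk (0.986) and Spc24 (0.984). These values share arrays and scaling and are descriptions.

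Other genes of the replication machinery were counted in the same way. Of 49 other replication genes with a probe set, 41 rose in early anagen against telogen and 1 fell, and the median was 1.26. Of all kept probe sets 13.5% rose and 13.2% fell. Top2a, the topoisomerase that also stands among the markers of dividing cells, rose by 3.67 ± 0.21 and Ccna2, the S phase cyclin, by 3.22 ± 0.17. Dbf4 and Cdc7, the kinase pair that fires origins, rose by 2.48 ± 0.21 and 1.92 ± 0.15, the checkpoint adaptor Clspn by 2.64 ± 0.18, the CDT1 inhibitor Gmnn by 1.83 ± 0.11, and the dUTPase Dut by 2.12 ± 0.14. Among the ORC genes Orc2 rose by 0.89 ± 0.12, while Orc3 (0.20 ± 0.12), Orc4 (0.36 ± 0.12) and Orc5 (0.06 ± 0.14) were not called. Tk2, the mitochondrial thymidine kinase, fell by 0.55 ± 0.16, and Rrm2b, the reductase subunit used by resting cells, differed by -0.04 ± 0.14. In mid against early anagen 6 fell (9.27% of all kept probe sets did) and 2 rose (10.4%), Ctps (1.70 ± 0.23) and Pold4 (0.66 ± 0.14). In telogen against late anagen 31 fell (21.6%) and 3 rose (23%), Tk2 (0.66 ± 0.13), Rrm2b (0.57 ± 0.14) and Orc3 (0.46 ± 0.15). At D5 against D3, Cdc7 (1.05 ± 0.21) and E2f2 (1.33 ± 0.25) rose (1.95%) and 0 fell (0.715%). In mid against early catagen 32 of the 49 fell (17.9%) and 0 rose (17.4%). At D3 against telogen 23 rose (13.4%) and 0 fell (19.7%). At D3 against natural early anagen 31 were lower (26.1%) and 1 higher (18.5%).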

How the data were processed

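RNA from the upper-mid back skin of 33 mice was measured on 33 Affymetrix 430 2.0 mouse arrays, 1 a mouse. The deposited intensities are MAS 5.0 signals that the authors scaled to a common trimmed mean. Intensities below 34.6, the percentile 25 of all values, were set to it and log2 was taken. Probe sets above the median of their array on at least 3 arrays were kept (26988 of 45037), and 34945 had 1 gene symbol, 932 several and 9160 none. Time points were compared with limma 3.58.1 (lmFit, eBayes; R 4.3.3), adjusted by Benjamini-Hochberg over all kept probe sets, with a call at an adjusted p under 0.05. Natural phases were compared on the arrays of the phases concerned, days within a natural phase on the 23 natural arrays, depilation days on the 10 depilation arrays and the cycles on all 33 arrays with 1 mean per time point. P34 (1 array) entered no phase mean. The number of arrays limits the precision, and replicates are separate mice. The members, gene lists and tests were chosen with earlier results of these data known. By rule, all members could be named, with full values for up to 3 leading genes in each direction per comparison, those against the main direction and 1 gene per role. The code was tested on simulated data. Alternatives were the floor, filter, scaling, probe set rule, replicate number, sex, arrays in the fit, time points per phase, the methods' one-way test and leaving out each array. Promoter words were counted and figures drawn in Python 3.11.15.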

Additional observations from a re-analysis of the deposited data

Results flagged for a closer look

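Of 126 gene and group combinations with 4 to 6 arrays, 5 held 1 array far from the others, and chance flags about 1 in 20 such groups. In early anagen Gins4 was 862.6 on P23 replicate 1, against 938.9 to 948.4 on the other arrays, and Tyms was 84.8 on P25 replicate 1, against 125.7 to 131.7. In early catagen Gins2 was 151.5 on P37 replicate 2, against 273.7 to 385.6, and Fen1 was 2561.4 on P39 replicate 2, against 739 to 1071.6. At D8 and D12, Gins1 was 245.8 on D12 replicate 2, against 438.6 to 489.1.

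The change between early and late anagen, depilation minus natural, differed from 0 by the interaction contrast of limma for 16 genes. This is the contrast given above, which shares its arrays with the comparison of D3 and natural early anagen. The log2 values were 1.70 for Cdc6, 1.61 for Ccne1, 1.44 for Mcm5, 1.34 for Mcm2, 1.28 for Pola1, 1.25 for Chaf1b, 1.15 for Rfc4, 1.13 for Rrm2, 1.06 for Mcm4, 1.03 for Pole2, 0.99 for Mcm7, 0.95 for Cdc45, 0.83 for Rfc5, 0.79 for Pola2, 0.72 for Orc6 and -1.09 for Orc1.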

How the results depend on the processing

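Leaving out each array in turn gave 36 to 39 called genes for early anagen against telogen, 0 to 15 for mid against early anagen, 10 to 33 for mid against early catagen, 0 to 4 for telogen against mid catagen, 28 to 34 for telogen against late anagen, 0 to 1 for D5 against D3, 0 to 1 for the depilation F test, 16 to 24 for D3 against telogen, 13 to 28 for D3 against natural early anagen, 0 to 1 for D5 against mid anagen, 1 to 3 for D8 and D12 against late anagen, 0 to 4 for D17 against early catagen and 2 to 23 for the interaction. The counts below moved by over 1.5 times, and the cause was not tested. Shares over all kept probe sets were not counted for the left-out arrays or for any of the settings below. With the joint fit of all 33 arrays, mid against early anagen gave 3 calls, late against mid anagen 2, the step into early catagen 1, and there were 2 for telogen against mid catagen, 3 for D5 against D3 and 3 for the depilation F test. With only the arrays compared, it was 0 at D5, 1 at D8 and D12 and 1 at D17 against the natural phase, and 25 for the interaction. P23 alone as early anagen gave 2 calls and P25 alone 0 for mid against early anagen. Without the filter it was 17 for mid against early catagen, 0 for the depilation F test, 1 at D8 and D12 and 1 at D17. Quantile normalization gave 0 for that F test, 0 at D5 and 4 at D17, and the lower floor 0 for the F test. With sex as a covariate it was 0 at D5, 1 at D8 and D12 and 1 at D17. The methods' one-way test at its own threshold, an unadjusted p under 0.01, called 6 genes in late against mid anagen, 3 in the step into early catagen and 15 for mid against early catagen, and after Benjamini-Hochberg adjustment 0, 0 and 22. By limma, 19.7%, 13.3% and 46.3% of all kept probe sets had an unadjusted p under 0.05 in these steps.

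With the mean of all probe sets of a gene, 1 gene was called for telogen against mid catagen, 2 for D5 against D3, 2 for the depilation F test, 1 at D17, and 1 at D5, which was higher and not lower. Under it the direction turned for Rfc2 in telogen against late anagen (0.08), for Rfc2 (0.12), Pola2 (0.03) and Fen1 (-0.02) at D3 against early anagen and for Pola2 in the interaction (-0.22). For single genes under settings other than a left-out array, 5673 results kept direction and call, 174 lost and 112 gained a call, and 5 turned. The replicate numbers did not pair the arrays: of 60 same-numbered pairs 18 correlated above 0.1 (-0.262 to 0.387). The replicate block gave 14 genes for mid against early anagen, 36 for early anagen against telogen, 0 for the depilation F test and 0 at D5. Time points of 2 arrays limit the depilation tests.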

Other observations

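Regulators of entry into S phase were measured beside the replication genes. In early anagen against telogen 3 of 9 rose and 1 fell: Mycn, a MYC family activator, by 3.48, Ccnd1, cyclin D1, by 1.13, the CDK inhibitor Cdkn1c by 0.64, and the CDK inhibitor Cdkn2b with -0.46. At D3 against natural early anagen 5 of the 9 were lower, Mycn (-4.30), Ccnd1 (-1.66), Cdkn1c (-1.12), Ccnd2 (-0.93) and Cdkn2b (-0.52), and 2 were higher, the activator Myc (0.60) and the CDK inhibitor Cdkn1a (0.51). At D3 against telogen Cdkn2b (-0.98) and Mycn (-0.81) were lower and Myc (0.53) was higher. Of all kept probe sets, 13.5% rose and 13.2% fell in early anagen against telogen. At D3 26.1% were lower and 18.5% higher than in natural early anagen, and 19.7% lower and 13.4% higher than in telogen. Whether the 9 regulators depart from these shares was not tested.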
